A study of Mus musculus with 2 samples.

Results

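The cells described here are enterochromaffin cells of the mouse small intestine that carry transcripts of Afp, the gene of alpha-fetoprotein. They were chosen by raw counts of unique molecular identifiers (UMIs, each standing for 1 captured RNA molecule): a cell was a member when it held at least 5 UMIs of Tph1 and at least 10 of Afp. The rule took 155 of the 2335 cells kept by the authors, a share of 6.64% (exact Clopper-Pearson 95% interval 5.66 to 7.72%). It took 155 of the 347 cells with at least 5 Tph1 UMIs, or 44.7% (39.4 to 50.1%). Because Tph1 and Afp chose the members, their levels are description only, and Chga is description only where cells were set apart by Chga.

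The library came from a mouse carrying ChgaCreER-tdTomato and Rosa26LSL-eYFP, alleles in which a tamoxifen-activated recombinase is driven from Chga and turns on a yellow fluorescent protein. Tamoxifen was given at 1 mg on 5 consecutive days, and all groups below share this genotype and treatment; no age of the animal was found in the labels. Both eYFP-positive and bulk epithelial cells of crypts were sorted and marked with hashtag antibodies, and 1 gene expression library and 1 hashtag library were made from 1 labelled mouse. The Afp-positive cells were compared with the 192 cells that held at least 5 Tph1 and fewer than 10 Afp UMIs (Afp-low enterochromaffin cells), with the 1969 cells holding fewer than 20 Chga UMIs (Chga-low cells), and with the 27 cells holding at least 20 Chga and fewer than 5 Tph1 UMIs (other endocrine cells). The name other endocrine cells stands for these thresholds only. Of those 27 cells, 22 held a Tph1 UMI (median 2 per cell) and 6 held at least 10 Afp UMIs. Of the Afp-low cells, 8 also fell under 20 Chga UMIs, whereas 0 of the 155 Afp-positive cells did (a count of 0 allows up to 1.94%).

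Enterochromaffin cells are the serotonin-producing endocrine cells of the gut epithelium: Tph1 makes the serotonin precursor, Ddc completes the synthesis, and the vesicular transporters Slc18a1 and Slc18a2 load serotonin into granules. Irritants, microbial products and neural signals reach them through receptors such as Trpa1, and the serotonin they release acts on nearby nerves and epithelium. Alpha-fetoprotein is best known as the plasma protein of fetal liver and yolk sac, from a gene family that also encodes albumin, and it is largely silenced in adult liver.

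With 1 library there is no replicate, so no test was run and no gene was called changed. UMIs were summed over the cells of a group and scaled to 1000000 (counts per 1000000, CPM), with exact 95% Poisson intervals, and ratios are log2 of the CPM after adding 10 to each. All intervals cover counting error only; they do not cover differences between animals. The Afp-positive cells held between 2877 and 101199 UMIs (median 14899), the Afp-low cells a median of 11449.5, the Chga-low cells 20179 and the other endocrine cells 3068. Median mitochondrial shares were 3.74% in Afp-positive, 3.64% in Afp-low and 7.29% in Chga-low cells.

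The libraries are labelled as 1 mouse, yet the cells did not look like cells of 1 sex. Among the Afp-positive cells, 66 held at least 3 UMIs of Xist, which is expressed from the inactive X chromosome of females, and no UMI of 4 Y-linked genes, whereas 38 held a Y-linked UMI and at most 2 of Xist. A further 42 of 155, or 27.1% (20.3 to 34.8%), held a Y-linked UMI together with at least 3 of Xist, against 15 of 192 Afp-low cells (7.81%, 4.44 to 12.6%) and 88 of 2335 cells overall (3.77%). Those 42 cells were deep, with a median of 25149.5 UMIs. By the doublet scores of Scrublet, 28 Afp-positive cells (18.1%), 50 Afp-low cells (26.0%) and 58 Chga-low cells (2.95%) were among the 6% of cells with the highest scores. How far cells of different animals, pairs of cells in a droplet or stray RNA enter the results was not tested; the main ratios are therefore also given within these sets.

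Afp was concentrated in the Afp-positive cells, which held 13077 of the library's 13718 Afp UMIs (95.3%). Per cell they had from 10 to 531 Afp UMIs with a median of 57, and 84 of the 155 had at least 50. Of the Afp-low cells, 115 of 192 held none. The groups differ here by construction; the plot of Tph1 against Afp shows the spread within each. Only 6 of the 161 cells with at least 10 Afp UMIs fell outside the rule for want of Tph1; they held 0 to 4 Tph1 and 27 to 146 Chga UMIs, and were shallow, with a median of 4632 UMIs in all. Tph1 itself was spread alike on both sides of the threshold, from 5 to 150 UMIs per Afp-positive cell and from 5 to 93 per Afp-low cell, with a median of 26 in each.

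**Figure D1:**
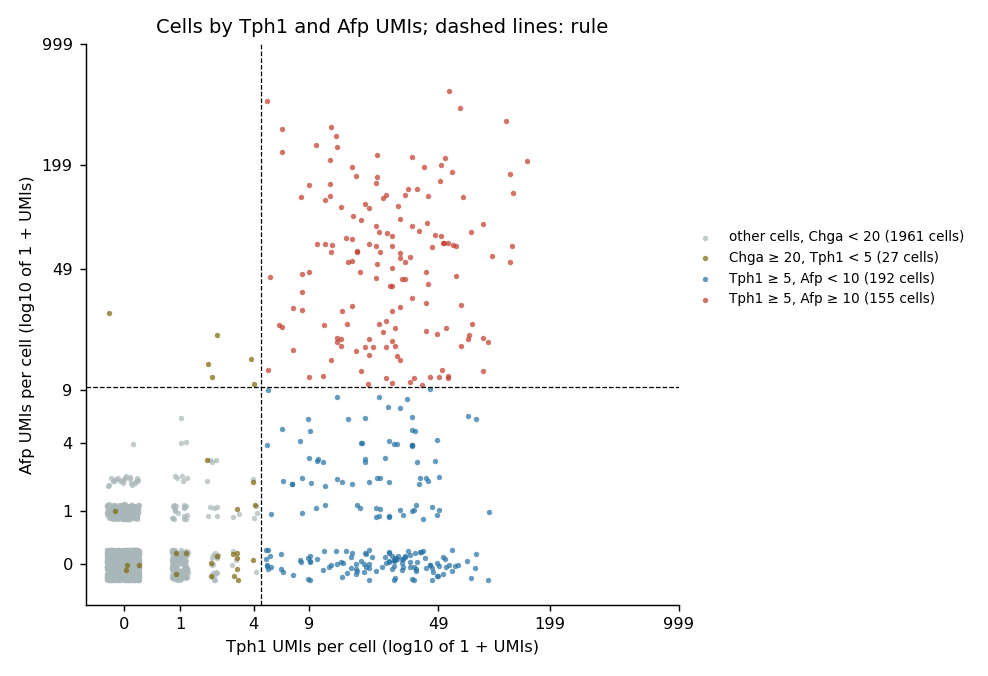
Tph1 (horizontal) and Afp (vertical) UMIs of each of the 2335 cells on axes of log10 of 1 plus UMIs, with a small random shift so that points do not hide each other; dashed lines are the thresholds of the rule. The 155 Afp-positive cells at the upper right run from 10 to 531 Afp UMIs, and few cells, 6 in all, have as much Afp with less Tph1.

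The label was read from the 6 enterochromaffin markers that neither the rule nor the Chga threshold used. All 6, namely Slc18a1, Chgb, Tac1, Ddc, Lmx1a and Fev, were higher than in Chga-low cells with intervals apart. Against that stand 33.3% of 13565 genes with at least 20 UMIs that were higher by the same criterion and 20.6% that were lower. The median log2 ratio of the 6 was 4.44, where the median over all those genes was 0.05. Because the Chga-low cells were chosen for low Chga, that comparison cannot tell enterochromaffin cells from other endocrine cells. Against the 27 other endocrine cells, Chgb, Tac1, Ddc, Lmx1a and Fev were higher in summed CPM with intervals apart and Slc18a1 overlapped. Nor can this comparison tell the cell types apart, since 22 of the 27 cells held a Tph1 UMI and 25 a Tac1 UMI. Per 10000 UMIs of the cell, the median of Chgb was lower in Afp-positive cells, 683 against 733. The 5 highest of the 27 cells held 41.3% of that group's Chgb UMIs. Medians per 10000 of Slc18a1, Tac1, Ddc, Lmx1a and Fev were higher in the Afp-positive cells. Over all 8 markers of the list, which include Tph1 and Chga, the median log2 ratio against the 27 cells was 0.80. The Tph1 thresholds fixed the direction of Tph1, so this median is description only. Chgb, a granule protein, had 126 to 4720 UMIs per Afp-positive cell (median 884). Tac1, the precursor of substance P, had a UMI in 98.1% of them, with 0 to 240 per cell (median 42). Slc18a1 had at least 1 UMI in every Afp-positive cell. Markers of T cells and of B or plasma cells each summed to 5.12 CPM, with Cd3d, Cd3e and Ms4a1 at 0, and Col1a1, Col1a2, Dcn and Sox10 were at 0 as well. Pecam1 of the stromal and endothelial list went the other way. It was higher than in Chga-low cells (log2 1.96) and Afp-low cells (log2 0.50), and its list summed to 32.7 against 1.01 CPM in Chga-low cells. Ret of the enteric neural list was also higher than in Chga-low cells, and that list summed to 7.36 against 3.71 CPM. All 9 Paneth markers were lower than in Chga-low cells and summed to 882 against 20857 CPM. The Paneth defensin Defa24 still had a UMI in 98.7% of Afp-positive cells, as in 98.9% of Chga-low cells, at 409 against 11495 CPM.

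Of the 6 genes given as markers of these cells, the 4 that the rule did not use were all higher than in the Afp-low cells. They were proposed with results of these data known, so their count is not independent evidence. Reg4 (ENSMUSG00000027876), a secreted lectin of the regenerating family and a known marker of enteroendocrine and deep crypt secretory cells, had 0 to 955 UMIs per Afp-positive cell with a median of 176, and 0 to 430 per Afp-low cell with a median of 1. The ranges overlap, but 142 of 155 Afp-positive cells held at least 10 Reg4 UMIs and 67 of 192 Afp-low cells did. Its level was 10376 CPM in Afp-positive cells (interval 10264 to 10490) and 1952 CPM in Afp-low cells (interval 1905 to 2000), and log2 of the ratio was 2.40 (2.35 to 2.46).

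Trpa1 (ENSMUSG00000032769), the irritant-gated cation channel, had 0 to 59 UMIs per Afp-positive cell (median 12) and 0 to 32 per Afp-low cell (median 2). At least 3 UMIs were present in 143 of 155 and in 87 of 192 cells. The levels were 704 and 260 CPM, with a log2 ratio of 1.41 (1.25 to 1.56). Slc18a2 (ENSMUSG00000025094), the vesicular monoamine transporter of neurons and some endocrine cells, had 0 to 41 UMIs (median 8) and 0 to 16 (median 2), at 471 and 143 CPM and a log2 ratio of 1.66 (1.46 to 1.85). Rgs2 (ENSMUSG00000026360), which accelerates the switching off of G proteins, had 0 to 100 UMIs (median 12) and 0 to 37 (median 1), at 827 and 253 CPM and a log2 ratio of 1.67 (1.52 to 1.82). For all 4 genes some cells of either group were at 0 and the ranges overlapped, while the median cell differed by at least 4-fold.

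The shares also differed at matched depth. With each cell thinned to 2000 UMIs, which left out 3 Afp-low cells and no Afp-positive cell, Reg4 had a UMI in 92.3% (86.9 to 95.9%) of Afp-positive and 45.0% (37.7 to 52.4%) of Afp-low cells. Without thinning the shares were 96.8% and 66.1%. Trpa1 had a thinned share of 71.0% against 34.9%, Slc18a2 of 71.0% against 25.9%, and Rgs2 of 67.7% against 33.3%. Cells with B cell markers, which had a median of 2680.5 UMIs and should lack Reg4, Trpa1 and Slc18a2, showed Reg4 in 12.7% and the other 2 genes in 0% of 71 thinned cells (a count of 0 allows up to 4.23%). Rgs2 is also a gene of lymphocytes, and was found in 15.5% of these cells and 3.88% of thinned Chga-low cells, whose unthinned median was 20179 UMIs.

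**Figure D2:**
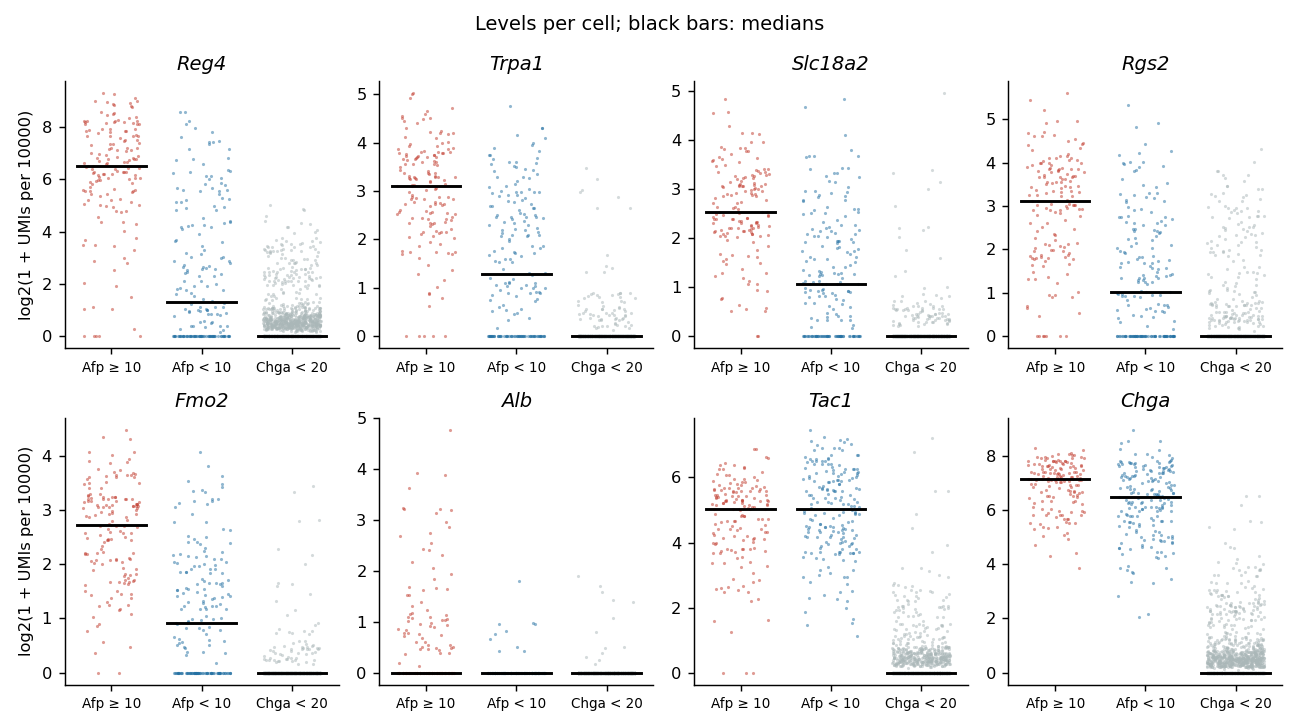
Levels per cell as log2 of 1 plus UMIs per 10000 UMIs of the cell for 8 genes, in Afp-positive cells (red, 155), Afp-low enterochromaffin cells (blue, 192) and Chga-low cells (grey, 1969 less the 8 shown in blue), with black bars at the medians. Reg4, Trpa1, Slc18a2, Rgs2 and Fmo2 have higher medians in the Afp-positive cells, Tac1 has nearly equal medians in both enterochromaffin groups, and Alb is at 0 in the median cell of every group.

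The sequence before the start of Afp and that before the start of Reg4 are shown because these 2 transcripts accumulate in the same cells. Each is the 250 bases upstream of the RefSeq start in GRCm38.p6, plus strand, 5′ to 3′: Afp at chr5:90490464-90490713 and Reg4 at chr3:98221906-98222155. Capitals mark the longest run of bases that both windows share and, in Afp, the letters TATAAA.
Afp: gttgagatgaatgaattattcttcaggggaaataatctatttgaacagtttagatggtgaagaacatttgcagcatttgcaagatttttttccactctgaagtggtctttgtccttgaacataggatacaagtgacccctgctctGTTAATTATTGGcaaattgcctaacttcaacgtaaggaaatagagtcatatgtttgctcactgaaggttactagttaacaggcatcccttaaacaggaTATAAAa
Reg4: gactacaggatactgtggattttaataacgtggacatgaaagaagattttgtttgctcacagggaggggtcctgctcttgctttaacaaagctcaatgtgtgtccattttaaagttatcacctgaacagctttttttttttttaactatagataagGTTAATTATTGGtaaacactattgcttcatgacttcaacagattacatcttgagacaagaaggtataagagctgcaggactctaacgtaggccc

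The shared run is the 12 bases GTTAATTATTGG, which lie 105 to 94 bases before the start of Afp and 94 to 83 before that of Reg4. On either strand it is present in 3 of 32851 RefSeq windows of the same length, those of Afp, Reg4 and the unnamed model C030018K13Rik. The run was found by comparing these windows after the expression values were seen, and a long shared run is rare by the way it was found. The letters TATAAA, those of a TATA box, are on either strand in 12.4% of windows. In that of Afp they lie 7 to 2 bases before the start, and whether they serve as a TATA box there was not tested. These matches describe the letters, not binding.

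Across genes with at least 50 UMIs over both groups, 67 of 9410 were at least 2-fold higher in Afp-positive than in Afp-low cells with intervals apart (0.712%), and 17 were at least 2-fold lower (0.181%). The rule itself accounts for Afp among the 67. Without the cells of highest doublet score these counts were 76 and 45, a lower count more than 1.5 times as large. The median log2 ratio over the 11147 genes with at least 20 UMIs was -0.03. The genes named next passed a fixed rule on their ratio, on the share of cells with a UMI and on the share held by the 5 highest cells.

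Of the named genes that were higher, Gstk1, a glutathione transferase, had 365 CPM against 40.5, a log2 ratio of 2.89 (2.61 to 3.18), with a UMI in 84.5% and 25% of cells. The flavin monooxygenases, which oxidise nitrogen- and sulphur-containing compounds, were represented by Fmo1 (145 against 28.6 CPM) and Fmo2 (502 against 149 CPM, log2 1.69). Fmo2 had 0 to 38 UMIs per Afp-positive cell (median 9) and 0 to 23 per Afp-low cell (median 1). Psat1, an enzyme of serine synthesis, had 207 against 42.3 CPM (log2 2.05), and Fabp3, a fatty-acid-binding protein, 68.2 against 6.39 CPM (log2 2.25). After thinning, Gstk1 had a UMI in 45.8% of Afp-positive and 9.52% of Afp-low cells.

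Further named genes were of signalling and other functions. Ucn3, which encodes the peptide urocortin 3, had 0 to 21 UMIs per Afp-positive cell (median 3) and 0 to 10 per Afp-low cell (median 0). It stood at 192 against 41.4 CPM, a log2 ratio of 1.98. Dusp2, a phosphatase of MAP kinases, had 330 against 99.8 CPM (log2 1.63). Rpp25, a protein subunit of RNase P, had a log2 ratio of 1.99 and Tubal3, an alpha-tubulin-like gene, of 1.64. Neto1, an auxiliary receptor subunit, had 85.2 against 21.3 CPM. The imprinted non-coding RNA Meg3 had 263 against 77.0 CPM (log2 1.65), but was found in 46.5% of Afp-positive cells only; among the 27 Afp-positive and 36 Afp-low cells outside hashtags 1 and 2 its levels were 77.8 and 78.1 CPM.

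The named genes that were lower belong in part to immature crypt cells. Neurog3, the transcription factor that starts endocrine differentiation, had 0 to 2 UMIs per Afp-positive cell and 0 to 46 per Afp-low cell, at 2.24 against 68.5 CPM (log2 -2.68, -3.01 to -2.26). At least 3 Neurog3 UMIs were present in 23 of 192 Afp-low cells and 0 of 155 Afp-positive cells (a count of 0 allows up to 1.94%). The stem cell genes Olfm4 (1105 against 2713 CPM, log2 -1.29), Ascl2 (log2 -1.18) and Lgr5 (20.5 against 51.1 CPM) were named as well. So were Cd74 and H2-Eb1 of MHC class II antigen presentation (log2 -1.03 and -1.04), the interferon-induced Ifitm3 (log2 -1.12), Pak3, a kinase of endocrine progenitors and neurons (log2 -1.04), Mgll, a lipase of monoacylglycerols (log2 -1.11), and Cdo1, an enzyme of cysteine breakdown (log2 -1.01). The median cell of either group held 3 Olfm4 UMIs, and 21 Afp-positive and 48 Afp-low cells held at least 50. Shares of Afp-positive and Afp-low cells with a UMI were alike for Olfm4 (91.0 and 87.5%), Ifitm3 (45.8% each), Pak3 (47.7 and 49.5%) and Cd74 (58.1 and 61.5%). They were further apart for Mgll (19.4 and 47.9%), Ascl2 (12.9 and 25%), Lgr5 (14.8 and 24.0%), Cdo1 (16.1 and 29.7%) and H2-Eb1 (29.0 and 40.1%).

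**Figure D3:**
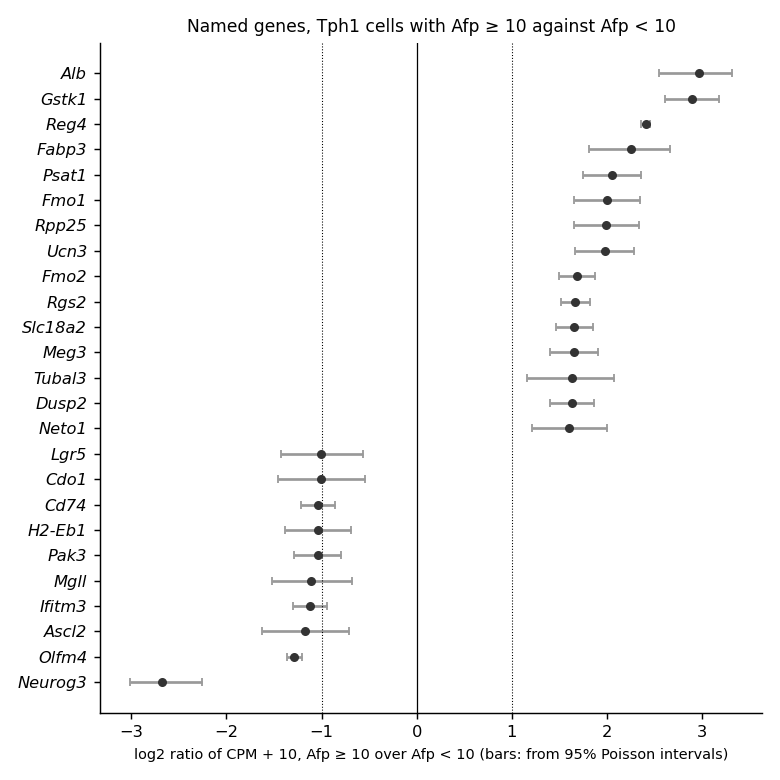
Log2 ratio of CPM plus 10 in Afp-positive over Afp-low enterochromaffin cells for the 15 genes named as higher and the 10 named as lower; bars combine the 95% Poisson intervals of both sums, and dotted lines mark 2-fold. Alb is highest at 2.96 and Neurog3 lowest at -2.68; the narrowest bar, that of Reg4, reflects its 38824 UMIs over both groups.

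Afp itself was graded, and several of these genes were graded with it. Cells with at least 5 Tph1 UMIs were put into bands by their Afp UMIs: 0 (115 cells), 1 to 4 (60), 5 to 9 (17), 10 to 49 (71), 50 to 99 (42) and 100 or more (42). Reg4 stood at 1026, 2787, 4458, 7084, 12338 and 12886 CPM in these bands. Gstk1 went from 17.2 CPM in the lowest band through 88.2 in the band of 5 to 9 to 600.3 in the highest. Slc18a2 was 107 CPM in the lowest band and 585 in the highest, Trpa1 178 and 888, Rgs2 126 and 1194, and Fmo2 81.5 and 606. Trpa1 and Slc18a2 did not climb at each step: the 17 cells with 5 to 9 Afp UMIs had 315 and 171 CPM, and those with 1 to 4 had 394 and 200. Tph1 moved little, between 1304 and 1757 CPM, and Tac1 was lower at the top, 2479 CPM against 3320 in cells with no Afp. Neurog3 was at 85.2, 60.1, 5.35, 3.95, 2.21 and 0 CPM. The highest band was also the deepest, with a median of 22480.5 UMIs against 10993 in the lowest. The bands cut the same cells by Afp, and these genes other than Tph1 and Tac1 were named or given as markers with these data known. Differences across the threshold of 10 Afp UMIs therefore repeat that choice and are not further evidence.

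**Figure D4:**
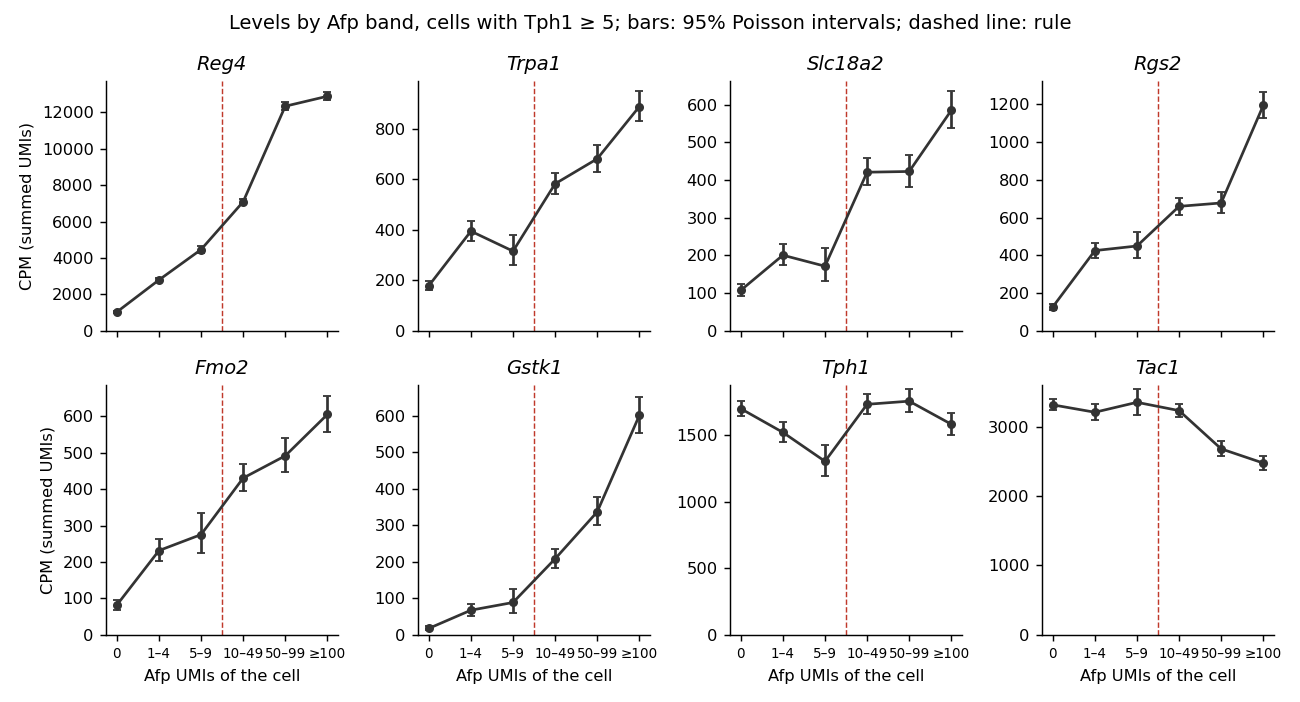
CPM of 8 genes over the 6 bands of Afp UMIs among the 347 cells with at least 5 Tph1 UMIs, with 95% Poisson intervals; the dashed line is the threshold of 10 Afp UMIs. Reg4 climbs from 1026 to 12886 CPM and Gstk1 from 17.2 to 600.3 CPM, while Tph1 stays between 1304 and 1757 CPM. The genes other than Tph1 and Tac1 were chosen with these data known.

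The 17 cells just under it, with 5 to 9 Afp UMIs, had a median of 64 Reg4, 4 Trpa1 and 3 Slc18a2 UMIs. The 18 cells just over it, with 10 to 14, had a median of 68, 8.5 and 7.5. Within the 155 Afp-positive cells, the Spearman rank correlation of UMIs per 10000 with those of Afp was highest, among 3662 genes found in at least 50% of them, for Psat1 (0.50), Reg4 (0.49), Tff3 (0.49), Apoc3 (0.47) and Reep6 (0.47). Tff3 encodes a secreted trefoil peptide, Apoc3 an apolipoprotein, and Reep6 a protein that shapes the endoplasmic reticulum. The lowest values were those of Ppia (-0.50), Rps4x (-0.47) and Ptma (-0.46), a chaperone of protein folding, a ribosomal protein and a small nuclear protein. For Trpa1 and Slc18a2 it was 0.46 each, for Chga 0.39, for Rgs2 0.29, for Tph1 0.11 and for Tac1 -0.06. These are descriptions of cells of 1 library; total UMIs had a correlation of -0.36 with Afp per 10000, and all these values share that depth.

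The serotonin pathway was read from 12 genes. Of the 12, 6 were higher, 1 lower and 5 overlapping against the Afp-low cells, with a median log2 ratio of 0.11; over all 11147 genes, 7.40% were higher and 7.14% lower by this criterion. Tph1 is counted here although it served the rule. Ddc had 1044 against 660 CPM (log2 0.65), Slc18a1 282 against 211 CPM (log2 0.40) and Slc18a2 the larger ratio given above. Gch1 and Qdpr, which make and recycle the tetrahydrobiopterin that Tph1 needs, had log2 ratios of 0.59 and 0.62. Spr, another enzyme of that cofactor, was lower (log2 -0.34), and Maoa, Maob and Slc6a4, which break down or take up serotonin, overlapped.

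Of 25 receptor and sensor genes, 15 were measured, 4 higher and 0 lower (all genes 7.40% and 7.14%). Besides Trpa1 these were Ffar2, a receptor of short-chain fatty acids (264 against 194 CPM, log2 0.43), Ffar1, a receptor of long-chain fatty acids (12.8 against 3.04 CPM), and Olfr78, an olfactory-type receptor (12.2 against 2.13 CPM). Piezo2, the mechanically gated channel of some enterochromaffin cells, had 0 UMIs in either group, which allows up to 0.960 CPM in Afp-positive cells. Of 24 channel genes 16 were measured and 2 were higher, Cacna1a (log2 0.30) and Abcc8 (log2 0.56), a share near the 7.40% of all genes. The sodium channel Scn3a was at 451 and 469 CPM in the Afp-positive and Afp-low cells, with intervals overlapping. In Chga-low cells it was at 3.93 CPM.

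Of 25 granule and exocytosis genes measured, 15 were higher, 1 was lower and 9 overlapped, with a median log2 ratio of 0.29, against 7.40% higher and 7.14% lower of all genes. Chga had 34 to 659 UMIs per Afp-positive cell (median 189) and 2 to 360 per Afp-low cell (median 107.5), a log2 ratio of 0.66. Scg2, another granin, had 77.5 against 25.9 CPM (log2 1.29), Vgf a log2 ratio of 0.83, the vesicle GTPase Rab3c of 0.80 and the fusion protein Snap25 of 0.64. Chgb had a log2 ratio of 0.34. Cplx2, a regulator of vesicle fusion, was the lower one (log2 -0.27).

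Of 11 peptide hormone genes measured, 5 were higher and 4 lower (all genes 7.40% and 7.14%). Tac1 (2846 against 3292 CPM, log2 -0.21) and Sct, which encodes secretin (780 against 888 CPM, log2 -0.18), were both slightly lower. Sums of the other hormones rest on few cells. Ghrl had 888 against 42.0 CPM, but 5 cells held 96.9% of its UMIs in the Afp-positive group; the 5 highest cells held 96.4% of Gcg, 89.5% of Gip and 85.6% of Cck. The median Afp-positive cell held 0 Ghrl, 0 Gcg, 1 Gip and 1 Cck UMIs. At least 50 UMIs of Cck, Gip, Gcg, Ghrl, Sst, Nts or Pyy were present in 13 of 155 Afp-positive and 6 of 192 Afp-low cells. Those 13 had a median of 26002 UMIs against 14322 in the other Afp-positive cells, with medians of 40 Afp and 187 Reg4 UMIs. Without such cells in any group, a setting chosen after seeing the data, 72 genes were at least 2-fold higher and 14 lower. Secretin exceeded Tac1 in 10 Afp-positive cells, which held 7632 Cck UMIs (median 424) against 1284 (median 1) in the other 145. Their Afp, which served the rule and is description only, was at 7779 CPM (7394 to 8179) against 3945 CPM (3874 to 4018). These intervals do not cover differences between the 10 cells.

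Of 24 endocrine transcription factors, 22 were measured, 10 higher and 4 lower (all genes 7.40% and 7.14%), with a median log2 ratio of 0.20. The higher ones included Lmx1a, a factor of enterochromaffin cells (226 against 171 CPM, log2 0.38), Isl1 (log2 0.97), Pax6 (log2 0.66), Mnx1 (log2 0.59) and Nkx2-2 (log2 0.45). Fev, a factor of serotonergic cells, had 321 against 280 CPM (log2 0.19). Neurog3, Sox4, Pax4 and Neurod2, all on early in endocrine differentiation, were the 4 lower ones. Targets of BMP signalling in the list of 12 gave 3 higher of 8 measured, Id1 (log2 0.44), Id2 (log2 1.00) and Id3 (log2 0.48), and 0 lower.

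Plasma protein genes of the liver were examined beside Afp because Afp is one. Of 24, 13 were measured, 6 higher including Afp, which served the rule, and 1 lower (all genes 7.40% and 7.14%). The other 6 overlapped, and the median log2 ratio of the list was 0.15. Alb, the albumin gene, had 0 to 26 UMIs per Afp-positive cell and 0 to 3 per Afp-low cell, with a median of 0 in each. A UMI was present in 44.5% (36.5 to 52.7%) and 5.21% (2.53 to 9.37%) of cells, and the levels were 98.9 and 3.96 CPM, a log2 ratio of 2.96. Ambp, the precursor of alpha-1-microglobulin and bikunin, had 319 against 113 CPM (log2 1.43), Apoc3 94.5 against 28.0 CPM (log2 1.46), Ttr, the carrier of thyroid hormone and retinol-binding protein, 646 against 342 CPM (log2 0.90), and Rbp4 107 against 50.2 CPM (log2 0.96). Apob was lower (log2 -0.56). Gc, Ahsg, Fga, Fgb and Fgg were at 0 in the Afp-positive cells.

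In the RefSeq gene order of GRCm38.p6, Alb lies immediately before Afp and Afm, a further gene of the family, immediately after. Afm was at 3.84 and 3.04 CPM, with intervals overlapping. Before Alb lie Ankrd17, at 188 against 168 CPM, and Cox18, at 14.7 against 18.3 CPM. After Afm lie Albfm1, for which the table gave no value, and Rassf6, at 18.6 against 16.1 CPM. Of the 5 neighbours with a value, Alb alone was past 2-fold.

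Of 14 known regulators of Afp, 1 was higher, 1 was lower and 12 overlapped, near the 7.40% higher and 7.14% lower of all genes. Zbtb20 and Zhx2, which repress Afp in adult liver, had log2 ratios of -0.22 (-0.44 to 0.01) and -0.15 (-0.66 to 0.37). Foxa2, a pioneer factor of endoderm, was higher (94.8 against 71.8 CPM, log2 0.36), and Trp53, a repressor of Afp, was lower (68.2 against 109 CPM, log2 -0.60). Hnf4a was at 161 and 149 CPM.

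Of the 4 Reg family members measured, Reg4 was higher, while Reg3b (217 against 867 CPM, log2 -1.95) and Reg3g (193 against 530 CPM, log2 -1.41), both antimicrobial lectins, and Reg1 (log2 -0.72) were lower. The pattern of Reg3b over the Afp bands was uneven, at 885, 1136, 56.1, 78.2, 287 and 335 CPM. The median of the 4 was -1.06 but 0.69 without the cells of highest doublet score and 0.73 among cells with a Y-linked UMI and at most 2 of Xist.

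All 11 stem cell genes were lower than in Afp-low cells (all genes 7.14%), with a median log2 ratio of -0.80, and 9 of 11 cycling genes were lower with a median of -0.50. Of the 7 endocrine progenitor genes measured, 3 were lower and 0 higher. Among cells with a Y-linked UMI and at most 2 of Xist, Lgr5 was at log2 0.10 (-1.12 to 1.32) and Ascl2 at -0.68 (-1.81 to 0.56), with intervals overlapping. The proliferation gene Mki67 was at 130 against 176 CPM (log2 -0.41). At least 3 of its UMIs were present in 32 of 155 Afp-positive and 36 of 192 Afp-low cells, shares not matched for the greater median depth of the Afp-positive cells. Leaving out cells with at least 3 Neurog3 UMIs, a setting chosen after seeing the data, left 64 genes at least 2-fold higher and 14 lower.

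Other lists were read for state and for other cell types, and their part in the results was not tested; by the same criterion 7.40% of all genes were higher and 7.14% lower. Immediate early genes, which are induced by stimulation and by tissue dissociation, were higher for 13 of 17, with a median log2 ratio of 0.38; Fos had 1891 against 1444 CPM and Jun 2544 against 1874 CPM. Of 11 heat shock genes, 2 were higher and 4 lower. Of 6 tuft cell genes measured, 5 were higher, yet all 9 of the list summed to 77.5 against 18.6 CPM, Il25 was at 0, and Dclk1 had 17.9 against 2.74 CPM. Among myeloid genes C1qa had 58.6 against 15.8 CPM, while Lyz2, Csf1r, C1qb and Adgre1 were at 0. Of 10 enterocyte genes measured 3 were higher, led by Rbp2 (265 against 91.0 CPM). Of 10 goblet genes, Tff3 was higher (1804 against 1215 CPM) and 3 were lower. The transgene transcripts were at 226 against 163 CPM for YFP and 359 against 240 CPM for tdTomato, and at 48.0 and 12.1 CPM in Chga-low cells.

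Against the Chga-low cells, 1136 of 12152 genes were at least 2-fold higher (9.35%) and 282 lower (2.32%). Reg4 led the genes named there, at 10376 against 52.5 CPM (log2 7.38), ahead of Chgb (log2 6.91), Tac1 (log2 6.28), the vesicle gene Rab3c (log2 6.01) and Trpa1 (704 against 1.94 CPM, log2 5.90). The intermediate filament gene Vim, the membrane glycoprotein gene Tpbg, Fmo2, the glutathione transferase Gstt1, Rgs2, Slc18a2 and Fxyd6, a regulator of the sodium pump, followed with log2 ratios from 5.52 down to 5.19. Vim had overlapping intervals in the Afp-low and Afp-positive cells (817 and 861 CPM). The lowest named ratios included 4 genes of the Paneth list, Defa30 at -5.04, Defa24 at -4.78, Lyz1 at -4.54 and Itln1 at -3.60. The others were AY761184 at -5.35, the defensin Defa29 at -4.62, Mptx2 at -3.46 and Reg1 at -3.24. With intervals apart, where 33.3% of all genes were higher, all 24 measured granule genes other than Chga, 20 of 24 endocrine factors and 8 of 11 serotonin genes other than Tph1 were higher than in Chga-low cells.

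The 27 other endocrine cells are few and shallow, so for genes of low level only large ratios could be seen. As 22 of them held a Tph1 UMI, the comparison is not with cells free of Tph1. Of 7506 genes, 177 were at least 2-fold higher in Afp-positive cells (2.36%) and 80 lower (1.07%). Gstk1 led, at 365 against 17.0 CPM (3 UMIs), a log2 ratio of 3.80 (2.57 to 4.88). Alb (1 UMI in the other endocrine cells, log2 2.80, 1.24 to 3.57), Fabp3 (1 UMI, log2 2.32, 0.74 to 3.12), Rpp25 (4 UMIs), the small membrane protein gene Rprml (213 against 28.3 CPM) and Id2 (245 against 39.6 CPM) were also named. Enpp2, the lysophospholipase autotaxin, and the mitotic gene Nusap1 had 78.4 and 38.7 CPM against 0 UMIs. Set against the 17.0 CPM that 3 UMIs over the 27 cells would give, these levels were 4.62-fold and 2.28-fold higher. Their log2 ratios were 3.14 (1.35 to 3.31) and 2.29 (0.45 to 2.49). Nusap1 had a UMI in 19.4% of Afp-positive cells, and 5 cells held 45.5% of its UMIs. Lower were Defa24, Defa30, Chd7, Malat1 and Srrm2, the last at 637 against 854 CPM.

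Hashtags gave the origin of the cells only in part, since the labels do not pair each antibody with a sort. By a 3-fold excess, 128 of 155 Afp-positive cells (82.6%, 75.7 to 88.2%) carried hashtags 1 and 2, 4 carried hashtags 3 and 4, and 23 could not be assigned. Afp-positive cells were 13.0% of the 987 cells of hashtags 1 and 2 and 0.973% of the 411 cells of hashtags 3 and 4. Among cells with at least 5 Tph1 UMIs the shares were 45.1% (39.2 to 51.1%, 284 cells) and 36.4% (10.9 to 69.2%, 11 cells), and the second rests on 4 cells.

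The 25 named genes were chosen for their ratios in all cells, and the sets below are parts of those cells. Agreement was therefore partly fixed in advance, most of all in hashtags 1 and 2 (128 Afp-positive and 156 Afp-low cells). Within hashtags 1 and 2 and within cells with Xist and no Y-linked UMI, all 25 named genes kept their direction with intervals apart. Outside hashtags 1 and 2, 24 kept their direction and 22 had intervals apart; Meg3, Cdo1 and Lgr5 did not. Among cells with a Y-linked UMI and at most 2 of Xist (38 Afp-positive and 45 Afp-low cells), 22 kept their direction and 20 had intervals apart; H2-Eb1, Cd74 and Lgr5 turned, at log2 0.23, 0.07 and 0.10. Reg4 stood at 9414 against 838 CPM in the Xist cells (log2 3.47) and at 17800 against 3936 CPM in the Y-linked cells (log2 2.17). Alb had log2 ratios of 3.22 and 3.23 in these sets, Gstk1 of 2.85 and 3.22, Slc18a2 of 1.96 and 1.29 and Trpa1 of 1.41 and 1.38. Among the 176 enterochromaffin cells with Xist and no Y-linked UMI, 37.5% (30.3 to 45.1%) were Afp-positive, and 45.8% (34.8 to 57.1%) of the 83 with a Y-linked UMI and at most 2 of Xist. Without cells holding both kinds of UMI, a setting chosen after seeing the data, all 25 kept their direction, and 74 genes were at least 2-fold higher and 30 lower.

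**Figure D5:**
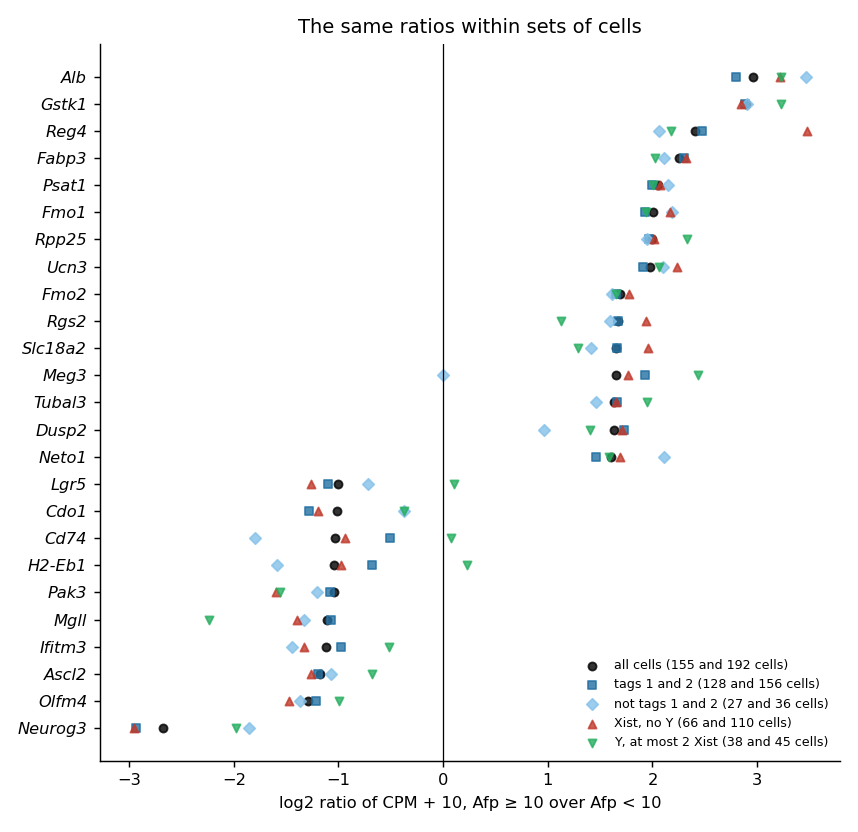
The log2 ratios of the 25 named genes, Afp-positive over Afp-low cells, computed in all cells (black), in cells of hashtags 1 and 2 and in the rest (blues), in cells with Xist and no Y-linked UMI (red) and in cells with a Y-linked UMI and at most 2 of Xist (green). The 15 higher genes lie right of 0 in every set except Meg3, which is at 0.00 outside hashtags 1 and 2; Lgr5, Cd74 and H2-Eb1 lie right of 0 in the green set.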

How the data were processed

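Single-cell RNA-seq and hashtag antibody data came from 1 library each. Per the submitters' processing notes, Cell Ranger and Seurat were used and the build was GRCh38; per the file headers, the matrix was written by software version 3.1.0. The gene identifiers are mouse Ensembl identifiers, so no coordinates were taken from the files. The deposited table holds raw counts of UMIs for 31055 genes in 2335 of 11248 barcodes; 0 of its entries differed from the deposited matrix. No source used here states the authors' filter on cells. Hashtag counts were read from the same matrix.

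UMIs were summed per group, divided by the group's total and given as CPM with exact 95% Poisson intervals; shares carry exact Clopper-Pearson intervals. A gene counted as at least 2-fold higher or lower with at least 50 UMIs over both groups, intervals apart and a log2 ratio, after adding 10 CPM, at or past 1 or -1. A list gene was measured with at least 20 UMIs. Named genes had a UMI in at least 10% of the higher group, intervals apart and at most 50% of that group's UMIs in its 5 highest cells; the 15 highest and 10 lowest ratios against Afp-low cells were taken, 12 and 8 against Chga-low cells and up to 8 and 8 against other endocrine cells. Genes of the rule, mitochondrial genes, unnamed models, sex-linked markers and transgenes were left out, with at most 3 per family. The 5 genes with the highest and the 3 with the lowest rank correlation with Afp were named besides, as were list members, some of them chosen after their values were seen. The members, markers and gene lists were chosen with earlier results of these data known. Doublets were kept unless an alternative says otherwise.

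Alternatives were other thresholds, thresholds per 10000 UMIs, dropping cells in the top 6% of Scrublet scores, equal weights, thinning to 2000 or 5000 UMIs, a pseudocount of 1 CPM, minimum counts of 20 and 200, and subsets of cells. The procedure was tested on simulated data. Software was Python 3.11.15, numpy 2.4.6, pandas 2.3.3, scipy 1.17.1, scanpy 1.11.5 and matplotlib 3.10.9. Promoter windows are from RefSeq (GRCm38.p6). Some list members are not reported here.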

Additional observations from a re-analysis of the deposited data

Results flagged for a closer look

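Of the 8913 barcodes that the authors left out, 49 meet the rule of at least 5 Tph1 and 10 Afp UMIs. They lie outside the filtered table and entered no comparison. They held 1709 to 42321 UMIs (median 10874) and a median mitochondrial share of 9.78%; 23 of the 49 were above 12.5%, the highest share of any kept cell. Their median hashtag count was 118, against 291 in the Afp-positive cells, and 3 were below the lowest count of a kept cell. With mitochondrial genes left out of the totals, Reg4 stood at 19942 CPM (19559 to 20330) in these barcodes against 10949 CPM in the Afp-positive cells, Rgs2 at 1280 against 873 CPM, Trpa1 at 944 against 743 CPM, Slc18a2 at 552 against 497 CPM, Fmo2 at 639 against 529 CPM and Alb at 135 against 104 CPM. Tac1 was at 3186 against 3003 CPM. What set these barcodes apart from kept cells beyond these values was not tested.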

How the results depend on the processing

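With 1 library, no setting adds a replicate, and depth limits the low genes and the 27 other endocrine cells most. No paired analysis was possible because 1 gene expression library was made and no result comes from a test. The named genes were chosen for their ratios in the main setting, and the alternatives reuse the same cells, so kept signs were largely fixed in advance. Of 425 values for the 25 genes named against Afp-low cells under the alternatives, 422 kept their sign, as did 320 of 320 for the 20 genes named against Chga-low cells and 154 of 156 for the 13 named against other endocrine cells. The exceptions were H2-Eb1, Cd74 and Lgr5 at log2 0.23, 0.074 and 0.10 among cells with a Y-linked UMI and at most 2 of Xist, and Alb at -0.37 and Nusap1 at -0.51 against other endocrine cells when Tph1 had to reach 10, where that group takes in former Afp-positive cells. The Reg family median against Afp-low cells, -1.06, became 0.69 without the highest doublet scores and 0.73 in the Y-linked set; the cause was not tested.

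Counts of genes moved more than directions, and the cause was not tested. Against Afp-low cells, 67 higher genes became 39 thinned, 40 at 200 UMIs, 150 with a pseudocount of 1 CPM and 145 against Afp-low cells with 0 Afp. The 17 lower genes became 37 with Tph1 at 3, 26 with thresholds per 10000 UMIs, 45 without the highest doublet scores, 74 with a pseudocount of 1 CPM, 28 in hashtags 1 and 2, 36 in the Xist set, 29 in the Y-linked set, 30 without cells with both, and 35 against Afp-low cells with 0 Afp. Against Chga-low cells, 1136 higher genes became 1982 with that pseudocount, and 282 lower genes became 425 per 10000, 933 without the highest doublet scores, 705 with equal weights, 763 thinned, 1001 with that pseudocount, 433 in hashtags 1 and 2 and 667 in the Y-linked set. Against other endocrine cells, 177 higher became 52 with Tph1 at 10 and 41 thinned, and 80 lower became 19, 17 and, at 200 UMIs, 16. Settings that left under 20 other endocrine cells (Tph1 at 3, per 10000, and both Xist and Y-linked sets) gave no value. The settings without cells rich in peptide hormones, without cells with Neurog3, without cells with both Xist and Y-linked UMIs, and against Afp-low cells with 0 Afp were chosen after seeing the data. Hashtags 1 and 2 held 82.6% of Afp-positive cells by a 3-fold and 74.8% by a 10-fold excess.

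Shares of cells with a UMI moved with depth by construction. Thinned to 5000 UMIs and then unthinned, Trpa1 was in 92.1% and 96.8% of Afp-positive and 54.8% and 68.2% of Afp-low cells, Slc18a2 in 85.5% and 98.7% against 47.6% and 70.3%, and Rgs2 in 86.2% and 95.5% against 53.0% and 65.1%. Reg4 was in 96.8% of Afp-positive cells unthinned, and in 53.6% and 66.1% of Afp-low cells.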
